A study of Mus musculus with 9 samples.

Results

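Tumors given radiation, R788 and an anti-PDL1 antibody were compared with tumors given vehicle, gene by gene and tumor by tumor. The comparison used the 6 of 9 libraries whose treatment label was Radiation + R788 + PD-L1 or Vehicle, with 3 tumors in each group. Of 54429 gene symbols in the table, 15931 had enough counts to be tested. All tumors grew from NB9464, a mouse neuroblastoma cell line with amplified MYCN, after injected cells were placed under the skin of wild-type C57BL/6 mice. The mice were 4 to 6 weeks old when injected, per the study's methods, and treatment began at a tumor volume of 250 mm3. The group called Rad + R788 + anti-PDL1 received 10 Gy of radiation, R788 at 50 mg/kg given 5 times a week, and the anti-PDL1 clone 10F.9G2. The labels give the antibody 4 times a week, whereas the series text lists 4 doses from day 28 to day 37. The remaining 3 libraries came from tumors given R788 + anti-PDL1 without radiation. They entered the same fit, which shares its estimate of the spread over all 9 libraries, and their values are set beside the others below. The 3 irradiated tumors are called irradiated tumors 1 to 3.

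Radiation alone was not analysed here, so against vehicle the effects of radiation, R788 and the antibody cannot be told apart. The model is a single cell line in mice of 1 strain, the sex of the mice was not given, and nothing in the labels says that each library came from a separate mouse. The p-values therefore measure the spread between these samples. Each library is a whole tumor, in which fewer cells of a type and less RNA per cell cannot be told apart.

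Ionizing radiation breaks DNA, and cells answer through the p53 pathway, repair of double-strand breaks and arrest of the cell cycle, while debris from dying cells can trigger interferon signaling and antigen presentation by MHC molecules. R788 (fostamatinib) is a prodrug that inhibits Syk, a kinase that carries signals from Fc receptors and other immune receptors in macrophages and B cells. PDL1, encoded by Cd274, is a ligand that restrains T cells through PD-1. The comparison addressed what the full combination did to the transcriptome of large tumors.

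Total counts were 18276683 to 23397886 per library, and 3 counts, the limit that a count of 0 allows, corresponded to 0.115 to 0.221 CPM (counts scaled to library size, normalized by TMM). Such limits cover counting error only. Irradiated tumor 1 stood apart from the other 8 libraries. Its log2 CPM correlated with theirs at r from 0.865 to 0.907 across genes, against 0.937 to 0.980 among the others, and 30 genes had no count in it although each other library held at least 50, against 0 to 2 genes in each other library. The tumors expressed mouse Mycn (93.3 to 250 CPM in the 9 libraries) and the sympathetic factor Hand2 (325 to 867 CPM), whereas Th and Hand1, which also mark noradrenergic neuroblasts, were at 0 in all 6 libraries compared.

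The way in which irradiated tumor 1 differed followed the length of genes. Over 8486 protein-coding genes with a mean log2 CPM above 4, the difference between this library and the vehicle mean had a median of 1.41 for the 124 genes whose exons add up to less than 1 kb. The median was 0.52 for genes of 2 to 3 kb and -0.81 for the 1336 genes above 9 kb. In the other 8 libraries the medians of the same length classes lay between -0.59 and 0.27. Irradiated tumors 2 and 3 followed no such slope, with medians of -0.24 and -0.12 in the shortest class and -0.03 and -0.07 in the longest. Smaller slopes were present in other libraries. Vehicle tumor 1 fell from 0.27 in the shortest class to -0.17 in the longest. The opposite slope was found in R788 + anti-PDL1 tumor 2, from -0.59 to 0.09.

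**Figure D1:**
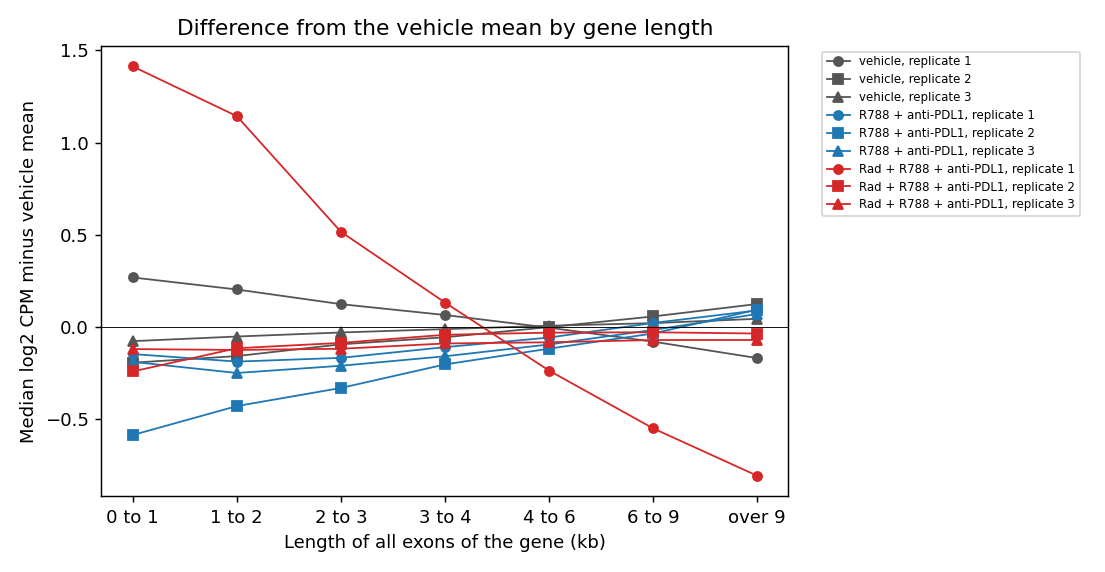
Difference in log2 CPM from the vehicle mean for each of the 9 tumors, as the median over genes in 7 classes of exon length (x axis, kb). Each line is a tumor, colored by group. Irradiated tumor 1 runs from 1.41 in the shortest class to -0.81 in the longest, and the other lines stay between -0.59 and 0.27.

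Only higher expression passed the test in the irradiated tumors. edgeR's quasi-likelihood test called 7 of 15931 genes at an adjusted p-value under 0.05, or 0.0439%, and all 7 were higher than in vehicle. They were Tes, Cav2, Cav1, Met, Dio2, Fam81a and Dpysl3. An unadjusted p-value under 0.05 was obtained for 13.2% of genes, 7.71% higher and 5.51% lower. The 3 irradiated and the 3 vehicle tumors did not overlap at 20.5% of genes, 9.27% with all irradiated tumors higher and 11.2% with all lower. DESeq2 called 554 of 17550 genes, or 3.16%, with 412 higher (2.35%) and 142 lower (0.809%). The number of edgeR calls was 57 without irradiated tumor 1, 3 without irradiated tumor 2, 4 without irradiated tumor 3, and 22, 1 and 1 without vehicle tumors 1, 2 and 3. It was 4, 14 and 3 without R788 + anti-PDL1 tumors 1, 2 and 3, which enter through the shared spread, the count filter and the normalization.

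A stretch of chromosome 6 carried 4 of the 7 called genes. These are Tes, Cav2, Cav1 and Met, spread over 509 kb (GRCm38, chromosome 6, 17065149 to 17573980, all on the plus strand). Tes encodes testin, a LIM domain protein of focal adhesions. Cav1 and Cav2 encode caveolins, the coat proteins of caveolae, and Met encodes the receptor tyrosine kinase for hepatocyte growth factor. Their promoters are shown because these neighbors moved together.

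The sequences are those of RefSeq (GRCm38.p6), from 250 bases before to 50 bases after each start. They are printed 5′ to 3′ on the plus strand in lower case, with 3 motifs searched on both strands put in capitals where they matched. These were GGGCGG, the core of the GC box bound by Sp1-type factors, TGANTCA, the AP-1 site, and GGAATG, a TEAD site. Met is at chr6:17463707-17464006, Tes at chr6:17064899-17065198, Cav2 at chr6:17280935-17281234 and Cav1 at chr6:17306085-17306384, the first of the 2 starts listed for Cav1.
Tes: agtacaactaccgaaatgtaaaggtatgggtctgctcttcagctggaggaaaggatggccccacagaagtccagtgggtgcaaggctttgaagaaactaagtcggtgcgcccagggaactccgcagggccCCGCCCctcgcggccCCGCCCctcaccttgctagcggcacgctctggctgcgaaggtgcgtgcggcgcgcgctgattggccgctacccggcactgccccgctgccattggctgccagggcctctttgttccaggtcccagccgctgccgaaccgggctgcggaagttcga
Cav2: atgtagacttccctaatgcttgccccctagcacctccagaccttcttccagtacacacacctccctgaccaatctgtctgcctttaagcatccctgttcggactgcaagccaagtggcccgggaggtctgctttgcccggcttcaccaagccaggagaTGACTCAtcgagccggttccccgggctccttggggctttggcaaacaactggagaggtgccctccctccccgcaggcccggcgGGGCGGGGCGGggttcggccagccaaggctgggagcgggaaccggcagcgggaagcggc
Cav1: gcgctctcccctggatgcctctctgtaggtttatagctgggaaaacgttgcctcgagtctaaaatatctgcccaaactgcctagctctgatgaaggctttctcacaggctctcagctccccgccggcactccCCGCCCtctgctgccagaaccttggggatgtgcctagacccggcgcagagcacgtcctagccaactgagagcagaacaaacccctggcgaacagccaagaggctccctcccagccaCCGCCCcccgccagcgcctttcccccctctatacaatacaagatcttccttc
Met: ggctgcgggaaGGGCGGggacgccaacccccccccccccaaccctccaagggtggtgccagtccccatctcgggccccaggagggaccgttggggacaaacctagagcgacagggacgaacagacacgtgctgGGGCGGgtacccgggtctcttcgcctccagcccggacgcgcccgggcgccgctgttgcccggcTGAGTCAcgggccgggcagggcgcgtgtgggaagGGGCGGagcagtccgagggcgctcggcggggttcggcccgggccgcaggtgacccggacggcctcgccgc
The GGGCGG core occurred 2 times in Tes, 2 times in Cav2, where the matches overlap by 1 base, 2 times in Cav1 and 3 times in Met. It was present in 35.9% of the 27025 promoters of the same length. TGANTCA occurred 1 time each in Cav2 and Met, against 7.93% of all promoters with a match. GGAATG was not found in these 4 windows and was present in 14.6% of all. CG pairs numbered 24, 16, 13 and 34 in Tes, Cav2, Cav1 and Met, against a median of 7 over all promoters. The GC content of these windows was 64.7%, 64.3%, 59.3% and 75.7%, against a median of 52.7%, and was not matched in the shares above. The window of the second Cav1 start, not printed, had 0 matches to each motif.

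Tes was at 3.37, 2.65 and 2.69 CPM in vehicle tumors 1 to 3 and at 38.9, 37.6 and 40.2 CPM in irradiated tumors 1 to 3. The R788 + anti-PDL1 tumors held 7.32, 4.43 and 6.76 CPM. The irradiated tumors were thus alike, lay far above the 2.90 ± 0.405 CPM (SD, n = 3) of vehicle, and overlapped neither other group. Tes rose by 3.74 ± 0.27 on the log2 scale (SE; edgeR adjusted p = 0.00173), and it was also the 1 gene of 15931 called between irradiated and R788 + anti-PDL1 tumors (2.66 ± 0.25, adjusted p = 0.0232). That second call depended on the libraries in the fit. It was kept without irradiated tumor 1 or vehicle tumor 1 and lost in the other 7 of 9 fits with 1 library left out (adjusted p = 0.0587 to 0.296), with log2 differences of 2.46 to 2.80 throughout. It was also lost with only the 6 libraries compared (adjusted p = 0.119) and with the replicate number as a block (adjusted p = 0.0925). Exons of Tes overlap those of Gm4876 on the other strand. Since no source states whether reads kept their strand, reads of that gene could be counted with Tes.

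Cav2 was at 2.98, 2.34 and 3.12 CPM in vehicle and at 18.5, 31.7 and 32.2 CPM in irradiated tumors. Its partner Cav1 was at 5.02, 4.36 and 6.41 CPM in vehicle and at 30.9, 67.3 and 54.7 CPM in irradiated tumors. Both genes rose, by 3.29 ± 0.30 (adjusted p = 0.00835) and 3.28 ± 0.32 (adjusted p = 0.0107), and in both the lowest irradiated value came from tumor 1. The R788 + anti-PDL1 tumors lay between the other groups, at 9.57 to 12.9 CPM for Cav2 and 16.4 to 20.8 CPM for Cav1, without overlapping either. The difference between the treated groups was not called for Cav2 (1.30 ± 0.28, adjusted p = 0.156) or Cav1 (1.46 ± 0.30, adjusted p = 0.136).

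Met had 2, 8 and 15 counts in vehicle tumors 1 to 3, or 0.110, 0.359 and 0.822 CPM, of which the first was under the 0.166 CPM that a count of 0 allows. In irradiated tumors it was at 21.8, 32.1 and 30.0 CPM, and in R788 + anti-PDL1 tumors at 7.67, 2.18 and 6.31 CPM. The receptor gene thus went from the edge of detection to a level well above it, with no overlap between the groups. It rose by 6.01 ± 0.70 (adjusted p = 0.0276), and the difference between the treated groups was 2.38 ± 0.56 (adjusted p = 0.179).

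The rise did not extend over the surrounding genes. Within 2 Mb of the 4 genes, 9 other genes were tested, 0 were called by edgeR, and their log2 fold changes had a median of 0.08 and ran from -1.95 to 1.17. Capza2, which lies next to Met and encodes an actin capping protein, had a log2 fold change of -0.12 ± 0.18, and St7 beyond it 0.21 ± 0.26. On the side of Tes, Tfec had 1.17 ± 0.67 (adjusted p = 0.436) and Mdfic 0.54 ± 0.27 (adjusted p = 0.406). Over chromosome 6 as a whole, the median difference from the vehicle mean was -0.25, -0.10 and -0.16 in irradiated tumors 1 to 3. The list of 23 caveolar and focal adhesion LIM genes, which holds Tes, Cav1 and Cav2, had a median of 0.02 over its 23 tested members, against 0.05 over all genes, with 12 higher and 11 lower. Its 3 calls were those 3 genes.

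Dio2, which encodes the deiodinase that converts the thyroid hormone T4 into active T3, was at 19.9, 19.1 and 23.2 CPM in vehicle and at 91.8, 155 and 144 CPM in irradiated tumors. It rose by 2.65 ± 0.28 (adjusted p = 0.0158). The R788 + anti-PDL1 tumors were again intermediate, at 76.1, 44.4 and 68.7 CPM, and the treated groups differed by 1.05 ± 0.27 (adjusted p = 0.192). Iyd, which recovers iodide from spent hormone precursors, had 0.386, 0.539 and 0.329 CPM in vehicle and 7.67, 4.47 and 4.11 CPM in irradiated tumors. It was the second of the genes closest below the threshold, at 3.67 ± 0.52 (adjusted p = 0.0605). The R788 + anti-PDL1 tumors held 0.485, 0.917 and 1.11 CPM of Iyd, and the treated groups differed by 2.68 (adjusted p = 0.133). Exons of Dio2 overlap those of Gm26512 on the other strand.

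Fam81a and Dpysl3 had similar levels in the irradiated and the R788 + anti-PDL1 tumors. Fam81a was at 0.552, 1.26 and 0.712 CPM in vehicle, 9.00, 8.88 and 6.76 CPM in irradiated tumors and 7.58, 7.19 and 9.75 CPM with the drugs alone. It rose by 3.27 ± 0.39 against vehicle (adjusted p = 0.0281), and the treated groups differed by 0.01 ± 0.35 (adjusted p = 0.994). Dpysl3, which encodes the axon guidance protein CRMP4, was at 14.9, 8.67 and 9.48 CPM in vehicle, 37.0, 58.2 and 56.4 CPM in irradiated tumors and 50.4, 64.7 and 50.1 CPM with the drugs alone. It rose by 2.20 ± 0.28 (adjusted p = 0.0455), with a difference of -0.12 ± 0.27 between the treated groups (adjusted p = 0.817). A missed threshold does not show that the treated groups were equal for these genes.

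The 7 calls differed in how far they depended on single libraries. When each of the 9 libraries was left out in turn, Tes was called in 9 of 9 fits, with log2 fold changes from 3.68 to 3.87. Cav2 and Cav1 were called in 7, and lost their calls without vehicle tumor 2 (adjusted p = 0.0878 and 0.123) and without vehicle tumor 3. Dio2 was called in 4, and lost its call without irradiated tumor 2 or 3, vehicle tumor 2 or 3, or R788 + anti-PDL1 tumor 3. Met and Fam81a were called in 3 each, and lost their calls without those 5 libraries or without R788 + anti-PDL1 tumor 1. Dpysl3 was called in 2, the fits without irradiated tumor 1 and without vehicle tumor 1. The fold changes stayed between 5.58 and 6.81 for Met, 2.50 and 2.88 for Dio2, 3.05 and 3.68 for Fam81a and 2.05 and 2.49 for Dpysl3. With only the 6 libraries compared, Tes was called (adjusted p = 0.0124). The other 6 genes lost their calls, with adjusted p-values of 0.0891 for Cav2, Cav1, Dio2 and Met, 0.109 for Fam81a and 0.113 for Dpysl3.

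**Figure D2:**
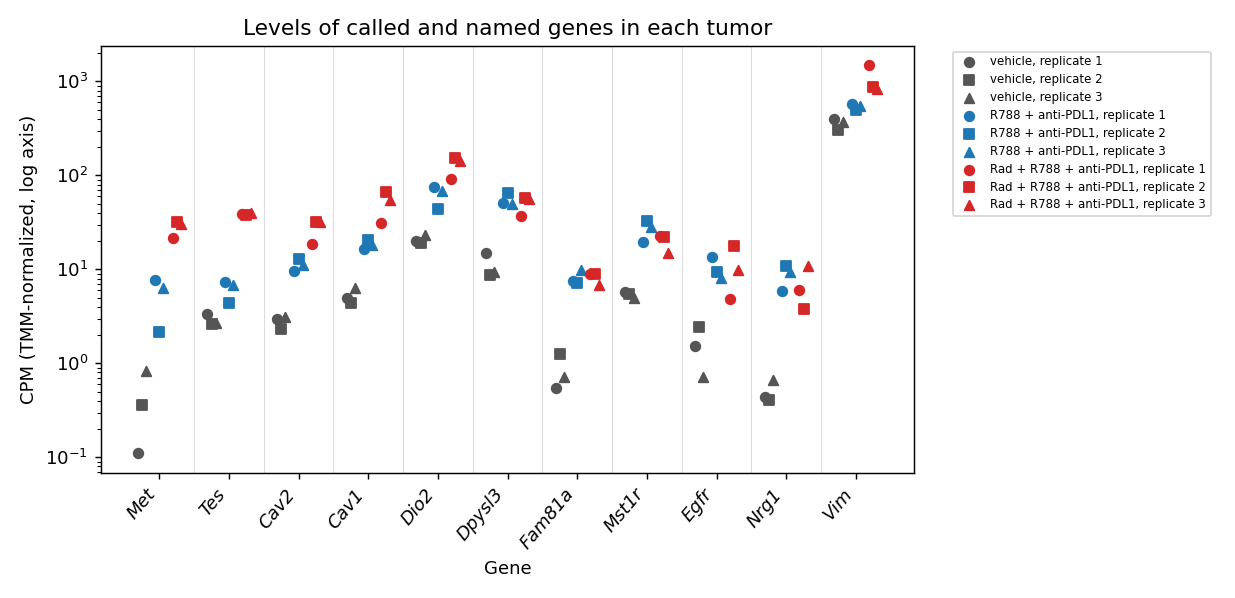
CPM of the 7 called genes and of Mst1r, Egfr, Nrg1 and Vim in each of the 9 tumors on a log axis, with 1 point per tumor, colors for groups and symbols for replicate number. For every gene shown the 3 irradiated tumors lie above the 3 vehicle tumors. The R788 + anti-PDL1 tumors lie between them for Tes, Cav2, Cav1, Met and Dio2 and reach or pass the lowest irradiated tumor for Fam81a and Dpysl3.

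The 10 next higher genes, taken among those with a mean count of at least 50 and no overlap between irradiated and vehicle tumors, had adjusted p-values of 0.0605 to 0.0723 and were Nrg1, Iyd, Hhip, Mst1r, Ush1g, Ecm1, Bmper, Cd109, Alpl and Pkp2. Mst1r encodes RON, the relative of Met that binds macrophage stimulating protein, and was at 5.69, 5.43 and 4.99 CPM in vehicle and 22.7, 22.3 and 14.9 CPM in irradiated tumors (1.89 ± 0.27, adjusted p = 0.0605). Nrg1, which encodes a ligand of ERBB receptors, was at 0.442, 0.404 and 0.658 CPM in vehicle and 6.05, 3.75 and 11.0 CPM in irradiated tumors (3.78 ± 0.51, adjusted p = 0.0605). The R788 + anti-PDL1 tumors were above all vehicle tumors for both genes, at 19.6 to 32.4 CPM for Mst1r and 5.86 to 10.7 CPM for Nrg1. Hhip and Bmper encode secreted regulators of Hedgehog and BMP signals, and Alpl encodes tissue-nonspecific alkaline phosphatase. The log2 fold changes of these 3 genes were 2.19 ± 0.31, 1.81 ± 0.27 and 2.44 ± 0.37.

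For Ush1g and Ecm1, of the same 10 genes, the drug-only tumors lay above all vehicle tumors and below all irradiated tumors. Ush1g, which encodes a scaffold protein of inner ear hair cells, was at 8.72, 10.2 and 10.0 CPM in vehicle, 22.1, 35.0 and 29.4 CPM in irradiated tumors and 10.8, 12.3 and 11.6 CPM in R788 + anti-PDL1 tumors. Its log2 fold change was 1.58 ± 0.23 against vehicle (adjusted p = 0.0606) and 1.32 against R788 + anti-PDL1 (adjusted p = 0.133). Ecm1, an extracellular matrix protein, was at 16.4 to 18.1 CPM in vehicle, 44.6 to 65.7 CPM in irradiated tumors and 24.3 to 41.0 CPM with the drugs alone.

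By edgeR 0 lower genes were called with all libraries, with 5.51% of genes lower at an unadjusted p-value under 0.05 and 142 called by DESeq2. The 10 lower genes closest to the threshold had adjusted p-values of 0.0606 to 0.127 and were Gpr55, Susd4, Rtn4rl1, Lix1, Arhgef10, Cyr61, Mcoln1, Gpr50, Sh3bp4 and Rasa3. Gpr55, a receptor for lysophosphatidylinositol, was at 16.5, 27.7 and 28.0 CPM in vehicle and 3.39, 3.50 and 3.20 CPM in irradiated tumors (-2.84 ± 0.41, adjusted p = 0.0606). Its drug-only values were 3.66, 1.26 and 1.97 CPM. Susd4, an inhibitor of complement, was at 12.04, 18.5 and 15.8 CPM in vehicle, 3.02, 2.44 and 2.97 CPM in irradiated tumors and 13.3, 5.47 and 10.9 CPM with the drugs alone. Its log2 fold change was -2.46 ± 0.37 (adjusted p = 0.0637), and the difference between the treated groups was -1.81 (adjusted p = 0.135). Gpr50, an orphan receptor related to the melatonin receptors, spread widely in vehicle at 12.3, 118 and 92.3 CPM and was at 5.38 to 6.94 CPM in irradiated tumors.

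Leaving out irradiated tumor 1 raised the number of calls to 57 of 16618 genes, or 0.343%, of which 53 were higher (0.319%) and 4 lower (0.0241%). All 7 genes called with every library were among the 57. At the 57 genes irradiated tumor 1 itself lay outside the vehicle range in the same direction for 47. All 3 R788 + anti-PDL1 tumors did so for 51. With all libraries, 25 of the 57 were also called for R788 + anti-PDL1 against vehicle, against 0.678% of all genes. Most of these differences were thus also present without radiation, and both comparisons share the vehicle tumors. The genes described here from this fit were chosen after their values were seen, apart from those named above. Egfr, the epidermal growth factor receptor, was at 1.55, 2.42 and 0.712 CPM in vehicle and 4.87, 17.8 and 9.96 CPM in irradiated tumors, with a fold change of 3.16 without tumor 1 (adjusted p = 0.0397) and 2.79 ± 0.57 with it (adjusted p = 0.136). Vim, the intermediate filament of mesenchymal cells, was at 403, 308 and 374 CPM in vehicle and 1480, 880 and 835 CPM in irradiated tumors, and rose by 1.27 without tumor 1 (adjusted p = 0.0122). Tnc, the matrix protein tenascin C, was at 128, 162 and 161 CPM in vehicle and 148, 310 and 284 CPM in irradiated tumors. It rose by 1.01 without tumor 1 (adjusted p = 0.0219), whereas tumor 1 lay inside the vehicle range.

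Genes called without irradiated tumor 1 included the transcription factor genes Isl1 and Zeb2. Isl1, which specifies sympathetic and motor neurons, had 0 counts in all 3 vehicle tumors and 1.03, 1.37 and 0.959 CPM in irradiated tumors, a mean at least 7.23-fold higher than the limit of 3 counts per vehicle library. The drug-only tumors held 3.53, 1.83 and 2.58 CPM of Isl1. With all libraries its adjusted p was 0.0605, and its mean count was below the 50 required of the next higher genes. Zeb2, a repressor linked to the mesenchymal state, was at 9.39, 8.94 and 8.77 CPM in vehicle and 25.2, 19.7 and 49.5 CPM in irradiated tumors, with a fold change of 1.98 without tumor 1 (adjusted p = 0.0497). The 4 lower genes were Cyr61, Mcoln1, Arhgef18 and Gm37206. Cyr61, a secreted target of YAP signaling, was at 35.5, 40.4 and 45.7 CPM in vehicle and 20.4, 20.3 and 16.4 CPM in irradiated tumors, and fell by 1.11 on the log2 scale (adjusted p = 0.0473). Mcoln1, a calcium channel of lysosomes, was at 237, 209 and 243 CPM in vehicle and 140, 105 and 102 CPM in irradiated tumors, and fell by 1.12 (adjusted p = 0.0122).

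The tested genes of antigen presentation, macrophages and T cells were higher in median in irradiated than in vehicle tumors, with the highest values in irradiated tumor 3. The counts in this and the following lists stand against shares of all genes. An unadjusted p-value under 0.05 was obtained for 13.2% of all genes, 7.71% higher and 5.51% lower. DESeq2 called 3.16%, 2.35% higher and 0.809% lower. MHC class II genes present extracellular antigen to helper T cells. Of 12 members 10 were tested, all 10 were higher, 9 had an unadjusted p-value under 0.05 and 5 did not overlap with vehicle, against 7.71% and 9.27% of all genes. None of the 10 was called by edgeR (lowest adjusted p = 0.235), and DESeq2 called 4. Their median log2 fold change was 2.31, and the median difference from the vehicle mean was 1.13, 0.74 and 3.27 in irradiated tumors 1 to 3. In drug-only tumors 1 to 3 that difference was 0.31, 2.12 and 1.11. Without irradiated tumor 3 the median was 0.80, and 10 of 10 were still higher. H2-Eb1, a class II beta chain, was at 14.1, 11.5 and 11.9 CPM in vehicle and 53.7, 22.4 and 199 CPM in irradiated tumors. The drug-only tumors were at 15.2, 78.8 and 38.2 CPM. Ciita, the master activator of class II genes, was at 0.404 to 0.994 CPM in vehicle and at 0.221, 1.32 and 14.4 CPM in irradiated tumors, so that its values rested on tumor 3, with a fold change of 2.78 with that tumor and 0.03 without it.

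MHC class I genes were tested for 14 of 14 members, all 14 of them higher, with a median of 1.49. Of these, 7 had an unadjusted p-value under 0.05, against 7.71% of all genes. There were 0 edgeR calls and 5 DESeq2 calls, the latter against 2.35% of all genes. The medians by tumor were 0.98, 0.13 and 2.46 in irradiated tumors 1 to 3 and 0.13, 1.10 and 0.78 in drug-only tumors 1 to 3. Without irradiated tumor 3 the median was 0.53, with 12 of 14 higher. Nlrc5, the class I activator, was high in all 3 irradiated tumors. It was at 10.8, 5.25 and 5.81 CPM in vehicle and 33.9, 34.4 and 47.2 CPM in irradiated tumors, with a log2 fold change of 2.40 ± 0.45 (adjusted p = 0.0980), and 2.23 without tumor 3. The class I heavy chain H2-K1 was at 33.2, 21.2 and 19.9 CPM in vehicle and 47.2, 24.7 and 237 CPM in irradiated tumors. B2m, the shared light chain, had a fold change of 0.26 ± 0.23.

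Macrophage, T cell and cytotoxic genes followed the same tumor. The summed level of 22 macrophage genes was 1204, 587 and 720 CPM in vehicle and 1315, 701 and 4002 CPM in irradiated tumors, and 1240 to 1273 CPM in R788 + anti-PDL1 tumors. Of these genes 19 of 22 were higher, 6 with an unadjusted p-value under 0.05, 0 were called by edgeR and 4 by DESeq2, and the median fold change was 1.14 with irradiated tumor 3 and -0.09 without it. Csf1r, the receptor that maintains macrophages, was at 30.3, 17.8 and 22.9 CPM in vehicle and 39.6, 25.7 and 203 CPM in irradiated tumors. C1qa, a complement subunit made by macrophages, was at 74.1, 25.8 and 31.7 CPM in vehicle and 143, 47.0 and 231 CPM in irradiated tumors. Cd68 did not follow Csf1r and was at 10.5, 27.5 and 50.7 CPM in irradiated tumors against 21.2 to 51.4 CPM in vehicle.

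T cell genes were sparse, with 9 of 18 members passing the count filter, so that medians over them describe only the members that passed. Their median was 2.28, with 8 higher, 4 unadjusted p-values under 0.05, 0 edgeR calls and 2 DESeq2 calls, and it was 0.53 without irradiated tumor 3. The medians by tumor were 0.26, 0.71 and 3.44 in irradiated tumors 1 to 3 and 1.06, 1.32 and 1.43 in drug-only tumors 1 to 3. The summed level of all 18 members was 58.7, 58.8 and 62.4 CPM in vehicle and 45.5, 67.8 and 116 CPM in irradiated tumors. It was 76.2 to 93.7 CPM in the drug-only tumors. Zap70, a kinase of the T cell receptor, was at 0.110, 0.180 and 0.384 CPM in vehicle and 1.55, 1.67 and 2.42 CPM in irradiated tumors (3.04 ± 0.59, adjusted p = 0.119), and at 2.81 without tumor 3. Cd8a, which marks cytotoxic T cells, was at 0.166, 0.674 and 0.274 CPM in vehicle and 0, 0.152 and 4.48 CPM in irradiated tumors. Of 14 NK and cytotoxic genes 10 were tested, all 10 higher, with a median of 1.45, 2 unadjusted p-values under 0.05, and 0 calls by edgeR or DESeq2. Without tumor 3 the median was 0.76. By tumor the medians were 0.92, 0.37 and 2.17 in irradiated tumors 1 to 3 and 0.42, 1.88 and 1.18 in drug-only tumors 1 to 3. Perforin, Prf1, was at 4.31, 2.83 and 2.30 CPM in vehicle and 3.76, 7.66 and 6.12 CPM in irradiated tumors (0.90 ± 0.39, adjusted p = 0.371).

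Interferon genes separated irradiated tumor 3 from all 8 other libraries. The 25 genes of the type I interferon response had medians of -0.61, -0.39 and 1.18 in irradiated tumors 1 to 3, and a median fold change of 0.30 with tumor 3 and -0.64 without it, when 5 of 25 were higher. By edgeR 0 were called, and 3 of the 25 had an unadjusted p-value under 0.05, against 13.2% of all genes. DESeq2 called 2, against 3.16% of all genes. Irf7, which amplifies the response, was at 2.26, 6.74 and 5.92 CPM in vehicle and 4.20, 3.40 and 49.9 CPM in irradiated tumors. The IFN gamma induced GTPases and chemokines had a median of 0.49 over 17 tested genes and -0.27 without tumor 3, with 0 edgeR calls, 1 unadjusted p-value under 0.05 and 0 DESeq2 calls. Oas1a was higher in all 3 irradiated tumors, at 13.1, 6.60 and 20.4 CPM against 3.37 to 3.84 CPM in vehicle (1.88 ± 0.40, adjusted p = 0.144). In tumor 3 the summed level of 4 Y-linked genes was also higher, at 21.1 CPM against 4.04 to 6.04 CPM in the other irradiated and the vehicle tumors and 8.36 to 10.0 CPM in the drug-only tumors, and the part of sex or of host cells in these differences was not tested.

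Syk and Cd274, which encode the drug targets, were not called. Syk was at 19.3, 14.3 and 13.0 CPM in vehicle and 15.3, 13.4 and 48.5 CPM in irradiated tumors (0.73 ± 0.45, adjusted p = 0.461), and -0.12 without irradiated tumor 3. Cd274 was at 2.65, 6.60 and 4.44 CPM in vehicle and 1.62, 2.64 and 7.95 CPM in irradiated tumors (-0.16 ± 0.62, adjusted p = 0.910). The groups overlapped for both. The genes that the study plotted as a heat map had medians of 1.15 for its T cell class, 2.28 for antigen presentation, 1.63 for stimulation and 1.88 for IFN gamma, with 5, 2, 2 and 3 tested members, 0 edgeR calls, 6 unadjusted p-values under 0.05 and 5 DESeq2 calls. Without irradiated tumor 3 these medians were 0.86, 1.36, 0.92 and -1.01. Its suppression class had a median of -0.82, with 3 of 3 members lower, 0 edgeR calls, 2 unadjusted p-values under 0.05 and 1 DESeq2 call. The panel was plotted for these same samples and how it was selected was not stated, so its direction is not independent evidence.

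Of 15 tested genes of suppressive macrophages, 2 lay below and 2 above the vehicle range in all 3 irradiated tumors, against 11.2% and 9.27% of all genes. Arg1, which depletes arginine, was at 16.1, 17.0 and 16.5 CPM in vehicle and 1.18, 1.88 and 2.42 CPM in irradiated tumors (-3.16 ± 1.09, adjusted p = 0.307). In the drug-only tumors it was at 19.8, 0.153 and 14.3 CPM, and this spread enters the shared error. Hmox1, heme oxygenase, was at 151, 209 and 208 CPM in vehicle and 63.5, 45.3 and 62.1 CPM in irradiated tumors (-1.73 ± 0.52, adjusted p = 0.265). In contrast, the scavenger receptor gene Stab1 was at 43.3, 24.6 and 25.5 CPM in vehicle and 127, 25.8 and 197 CPM in irradiated tumors, and the gelatinase gene Mmp9 at 9.74 to 10.8 CPM and 23.1 to 36.4 CPM. Over 15 tested members the median was 0.32, with 8 higher and 7 lower, 0 edgeR calls, 3 higher and 4 lower at an unadjusted p-value under 0.05, and 2 DESeq2 calls. Without irradiated tumor 3 it was -0.70, with 4 of 15 higher.

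**Figure D3:**
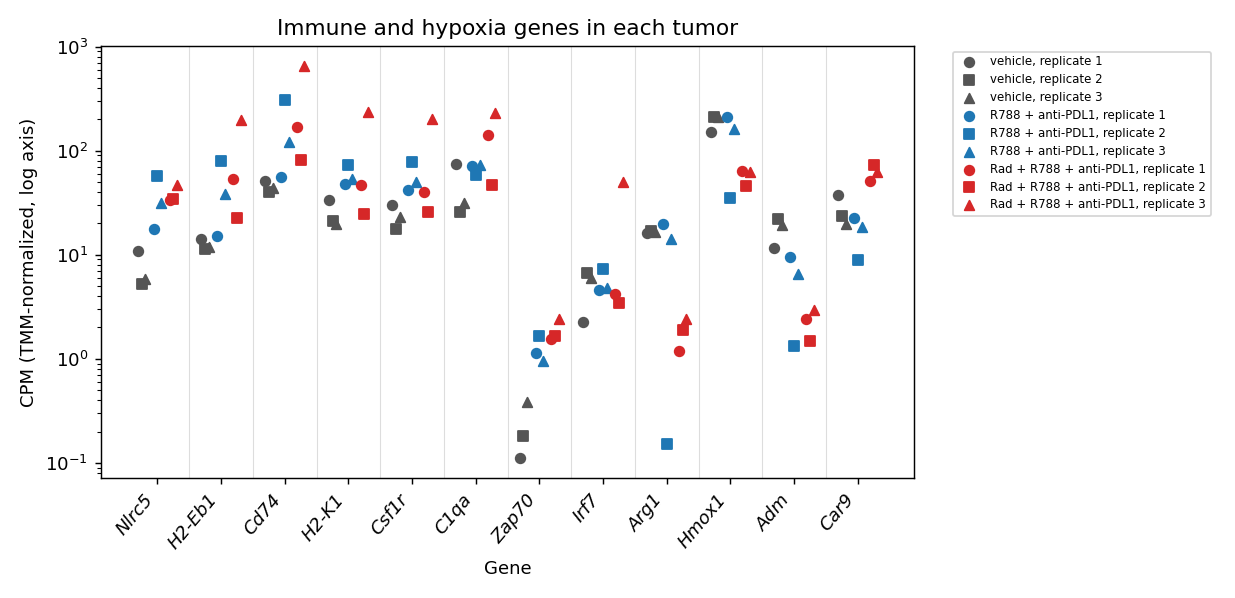
CPM of 12 immune and hypoxia genes in each of the 9 tumors on a log axis, with 1 point per tumor and symbols for replicate number. Irradiated tumor 3 (red triangles) is highest for H2-Eb1, Cd74, H2-K1, Csf1r, C1qa and Irf7, whereas the 3 irradiated tumors lie together for Nlrc5, Arg1, Hmox1, Adm and Car9.

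The 28 p53 targets had a median log2 fold change of 0.02, against 0.05 over all genes, with 14 higher and 14 lower and 0 edgeR calls. Of the 28, 3 had an unadjusted p-value under 0.05, against 13.2% of all genes. DESeq2 called 1, against 3.16% of all genes. Cdkn1a, the p53 target that arrests the cell cycle and is named here after its values were seen, was at 19.4, 31.2 and 27.5 CPM in vehicle and 24.7, 24.9 and 32.0 CPM in irradiated tumors (0.06 ± 0.23). It was lower in the drug-only tumors, at 10.8 to 13.4 CPM. The death receptor gene Fas was at 0.883, 1.21 and 0.877 CPM in vehicle and 3.47, 2.54 and 2.92 CPM in irradiated tumors (1.58 ± 0.42, adjusted p = 0.221).

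Repair and cell cycle genes were slightly lower in median. Of 26 genes for the repair of double-strand breaks 20 were lower, with a median of -0.28, and 7 lay below the vehicle range in all irradiated tumors. Of 30 cell cycle genes 21 were lower, with a median of -0.21, and 10 lay below the vehicle range in all irradiated tumors, against 11.2% of all genes. Over the 8486 protein-coding genes with a mean log2 CPM above 4 that share was 15.3%. Some chromosomes were lower as a whole, as described below, and the part of such shifts in these lists was not tested. By edgeR 0 were called in either list, with 5 and 3 unadjusted p-values under 0.05, and DESeq2 called 1 and 0. Brca1 and Rad51c, which act in homologous recombination, had fold changes of -1.02 ± 0.32 and -0.90 ± 0.27 (adjusted p = 0.271 and 0.265). Kif11 and Top2a, a spindle motor and a topoisomerase of dividing cells, had -0.83 ± 0.25 and -0.75 ± 0.24. H2afx, the histone phosphorylated at breaks, was at 109, 46.1 and 52.9 CPM in vehicle and 342, 147 and 127 CPM in irradiated tumors (1.56 ± 0.48, adjusted p = 0.268), the first value being that of the tumor in which short genes were high.

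Hypoxia genes went both ways. Adm, the vasodilator adrenomedullin, was at 11.6, 22.2 and 19.5 CPM in vehicle and 2.43, 1.47 and 2.92 CPM in irradiated tumors (-2.96 ± 0.65, adjusted p = 0.151). Car9, carbonic anhydrase 9, was at 37.1, 23.5 and 19.6 CPM in vehicle and 50.7, 72.6 and 62.9 CPM in irradiated tumors (1.21 ± 0.37, adjusted p = 0.265). Both are classical targets of HIF1 alpha. Over 22 tested genes the median was -0.19, 9 were higher and 13 lower, 5 had an unadjusted p-value under 0.05, and edgeR called 0 and DESeq2 2, which were these genes.

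Of 21 tested mesenchymal genes, 6 lay above and 3 below the vehicle range in all 3 irradiated tumors, against 9.27% and 11.2% of all genes. Their median was -0.04, with 10 higher and 11 lower, and edgeR called 0, 8 had an unadjusted p-value under 0.05 and DESeq2 called 5. Twist1 was at 41.4, 19.3 and 26.5 CPM in vehicle and 83.2, 88.6 and 75.5 CPM in irradiated tumors (1.51 ± 0.27, adjusted p = 0.0963). In contrast, Prrx1, which also drives mesenchymal programs, was at 94.0, 221 and 196 CPM in vehicle and 38.8, 59.9 and 58.5 CPM in irradiated tumors (-1.70 ± 0.38, adjusted p = 0.155). Neuronal differentiation genes passed the count filter for 10 of 22 members, with a median of 1.20, 8 higher, 0 edgeR calls, 5 unadjusted p-values under 0.05 and 1 DESeq2 call. A member could pass the filter through the treated tumors alone, here and in the other lists, so the median describes only those that passed. Nefm, Snap25, Elavl4 and Dcx were at 0 in all 6 libraries compared. The medians by tumor were 0.42, 1.13 and 0.99 in irradiated tumors 1 to 3 and 0.99, 1.09 and 0.80 in the drug-only tumors. Stmn4, a tubulin regulator of neurons, was at 0.497 to 1.21 CPM in vehicle and 2.74 to 9.37 CPM in irradiated tumors (2.78 ± 0.72, adjusted p = 0.221).

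Fibroblast and collagen genes had a median of 0.01 over 22 tested genes and endothelial and pericyte genes 0.39 over 18, with 0 edgeR calls, 4 unadjusted p-values under 0.05 in each list, and 3 and 1 DESeq2 calls. Fap, a protease of activated fibroblasts, was at 5.02, 3.50 and 5.04 CPM in vehicle and 15.7, 10.9 and 12.9 CPM in irradiated tumors (1.54 ± 0.29, adjusted p = 0.0980). Red cell genes were lower at 5 of 5 tested members, with a median of -1.91, 4 unadjusted p-values under 0.05, 0 edgeR calls and 4 DESeq2 calls, and their summed level was 626, 202 and 252 CPM in vehicle and 185, 54.1 and 49.2 CPM in irradiated tumors. The drug-only tumors were at 58.3 to 110 CPM. Keratinocyte genes passed the filter at 6 of 12 members, with 4 higher and 2 lower, a median of 1.28, 0 edgeR calls and 2 unadjusted p-values under 0.05, and DESeq2 called Krt5 among these 6. This keratin gene was at 7.51, 3.05 and 4.66 CPM in vehicle and 75.0, 54.1 and 46.5 CPM in irradiated tumors, while Krt14, its usual partner in basal skin cells, was at 0 to 0.101 CPM in irradiated tumors. The summed level of 14 skeletal muscle genes was 158 to 201 CPM in vehicle and 915, 242 and 221 CPM in irradiated tumors. Of these genes 8 were tested, 4 higher and 4 lower, with a median of 0.31, 0 edgeR calls, 2 unadjusted p-values under 0.05 and 2 DESeq2 calls. The part of adjacent muscle or skin in the results was not tested.

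**Figure D4:**
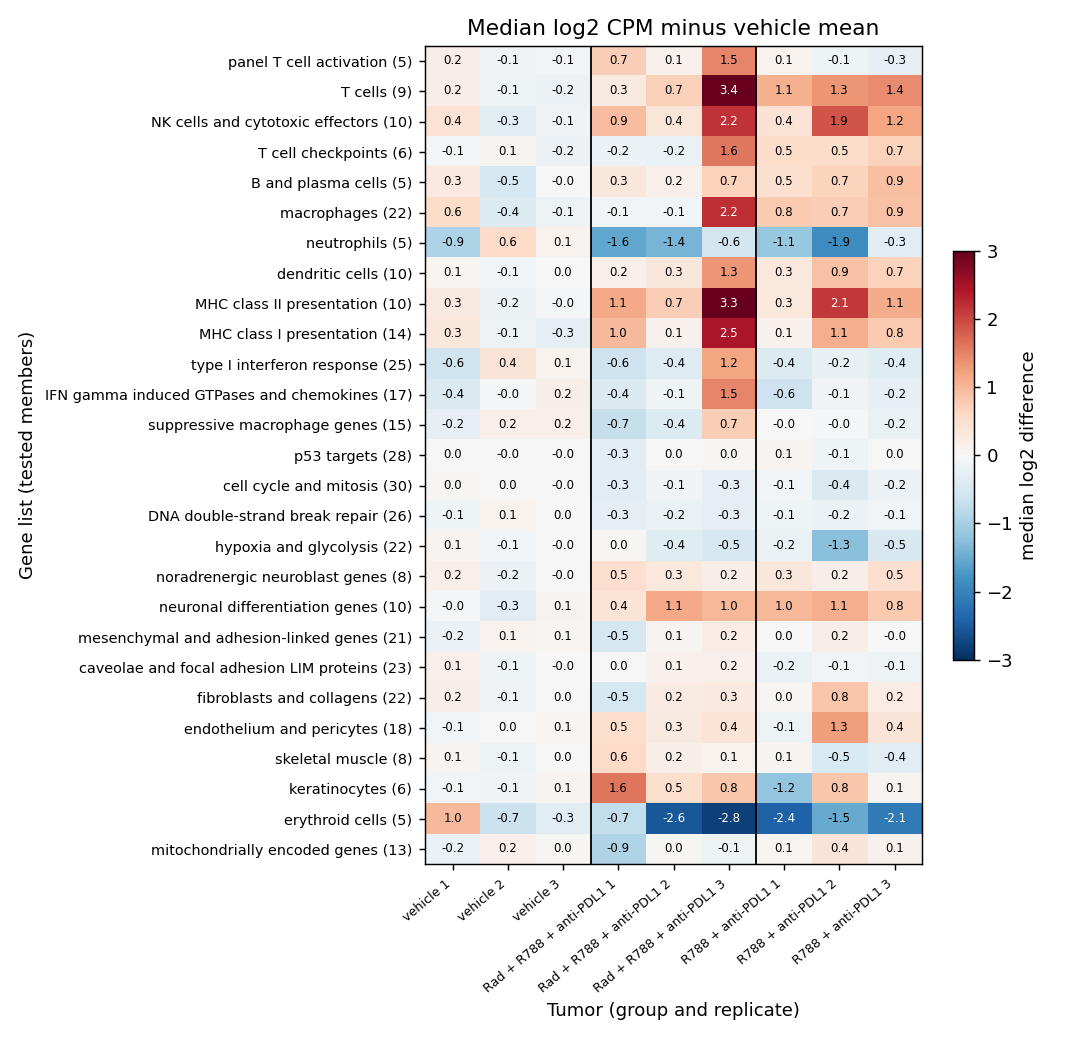
Median difference in log2 CPM from the vehicle mean for 27 gene lists (rows, with the number of tested members) in each of the 9 tumors (columns). Colors run from blue (lower than vehicle) to red (higher) and are limited at 3. Irradiated tumor 3 has 3.4 for T cell and 3.3 for MHC class II genes, and the p53 targets stay between -0.3 and 0.1 in every tumor.

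Single genes set each irradiated tumor apart. They were picked for the gap to the nearest of the other 8 libraries, so they are a description with no test. In irradiated tumor 1, Exosc6 was at 202 CPM against 0 to 3.26 CPM elsewhere, the ribosomal gene Rps12 at 865 CPM against 40.3 to 105 CPM, and Lrch3 and Eif3j2 at 0 against 40.2 to 60.2 CPM and 37.2 to 52.2 CPM. In irradiated tumor 2 the gaps were smaller, with Hmcn1 at 6.29 CPM against 0 to 0.794 CPM and Gprin2 at 25.5 CPM against 3.76 to 12.6 CPM. In irradiated tumor 3, genes of the interferon response and of myeloid cells led. Besides Irf7 they were Slfn4 at 22.5 CPM against 0.661 to 2.47 CPM, Oas3 at 12.9 CPM against 0.369 to 2.25 CPM, Ccl8, a chemokine for monocytes, at 76.3 CPM against 3.20 to 14.8 CPM, Ifit1bl1 and Cd300ld5.

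Some chromosomes were lower as a whole, and others were higher by smaller amounts. Over 289 genes of chromosome 19, the median difference from the vehicle mean was -0.43, -0.39 and -0.42 in irradiated tumors 1 to 3, against -0.12, -0.05 and -0.09 over all 8486 genes measured in this way. In 45.0% of these genes all irradiated tumors lay below all vehicle tumors, against 15.3% over all 8486. Chromosome 11 had medians of -0.31, -0.25 and -0.29, with 32.1% of genes below the vehicle range, and chromosome 1 had -0.49, -0.23 and -0.28, with 27.7%. Among the higher ones, chromosome 5 had 0.04, 0.11 and 0.06 in irradiated tumors 1 to 3. Chromosome 4 had 0.05, 0.13 and 0.04. All irradiated tumors lay above all vehicle tumors in 11.5% and 11.4% of their genes, against 6.16% over all 8486. In drug-only tumors 1 to 3 the chromosome 19 medians were -0.02, -0.42 and -0.11. Those of chromosome 11 were -0.03, -0.38 and -0.12. On chromosome 1 they were -0.22, -0.30 and -0.25, so that this shift was also present without radiation. A shift on chromosome 18 was present in drug-only tumors 1 and 3 only (-1.11 and -0.78), where the irradiated tumors had -0.31, -0.06 and -0.14. Genes of a chromosome are not independent, and the number of copies was not measured. The part of these shifts in the single genes and lists above was not tested.

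**Figure D5:**
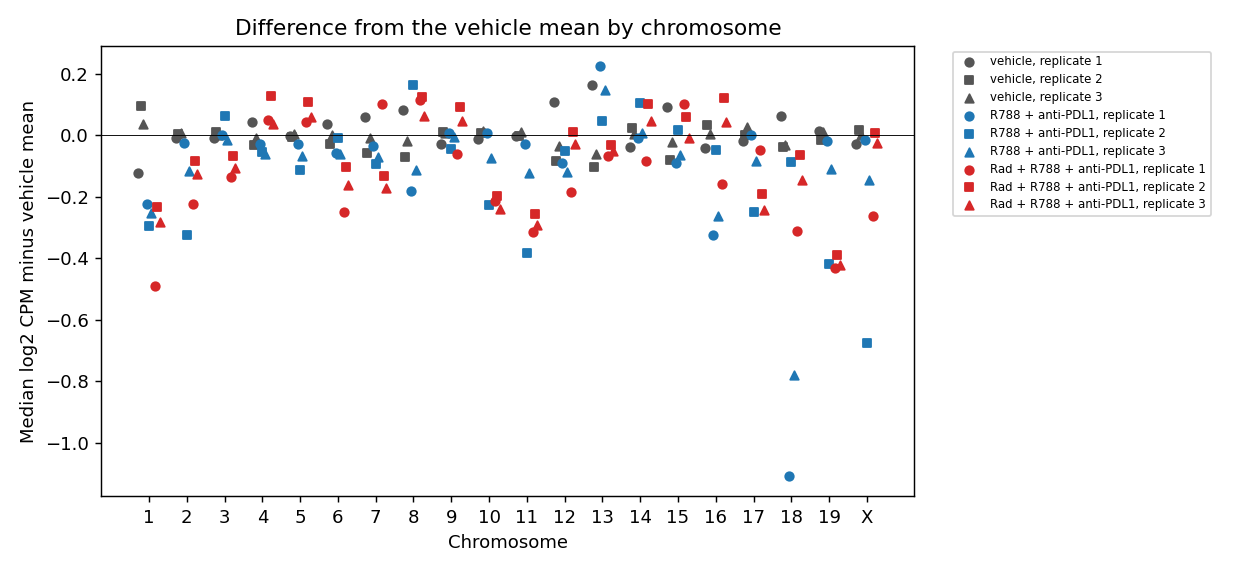
Median difference in log2 CPM from the vehicle mean for the protein-coding genes of each chromosome (x axis), with 1 point per tumor. The 3 irradiated tumors lie together below 0 on chromosomes 1, 11 and 19. The R788 + anti-PDL1 tumors also lie below 0 on these chromosomes, and tumors 1 and 3 of that group are the lowest points on chromosome 18.

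Exons of Nrg1, Hhip, Gpr55, Arhgef10, Zeb2, Tnc, Nlrc5, Ciita, Csf1r, Irf7, Stab1, H2afx, Car9, Krt5 and Cd274 overlap another gene that runs in the opposite direction, which leaves their counts uncertain. The same holds for MHC class I, Oas and hemoglobin genes, whose reads can be shared among close paralogs.

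Set against R788 + anti-PDL1 tumors, which differ from the irradiated ones by radiation alone among the labelled treatments, 1 of 15931 genes was called (0.00628%), and it was Tes. R788 + anti-PDL1 against vehicle called 108 of 15931 (0.678%). Both comparisons with vehicle share the vehicle tumors, so the values stand side by side above and no likeness between them was tested. Apart from Tes, of the called genes and the 20 closest to the threshold, those with the smallest adjusted p between the treated groups were Iyd and Ush1g (0.133 each) among the higher genes and Susd4 (0.135) among the lower ones.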

How the data were processed

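Whole-tumor RNA of 9 libraries was sequenced after poly(A) selection. Per the submitters' notes and the study's methods, reads were aligned by the authors to mm10 with STAR 2.6.1d and quantified them with Salmon 1.4.0. The deposited values were estimated counts per gene symbol, as whole numbers without normalization. The sources conflicted on the RNA source (macrophages or whole tumor), the sequencer and read layout, and strandedness was not stated. No batch was labelled.

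Genes passing filterByExpr (minimum count 10) were TMM-normalized and fitted with edgeR 4.0.16 in R 4.3.3 (robust quasi-likelihood F test, two-sided, a coefficient per group over 9 libraries), with calls at an adjusted p-value (Benjamini-Hochberg) under 0.05. Fold changes are log2 with SE. Differences from the vehicle mean use log2 CPM with a prior count of 2. The study used DESeq2, run here as an alternative (1.42.0), as were limma-voom 3.58.1, other normalizations and filters, and fits without each library. The fit was tested on simulated data. Identifiers and lengths came from GENCODE M21 (GRCm38), which matched 98.8% of symbols, and promoters from RefSeq.

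Genes were named by rule: all called genes, the 10 next higher and 10 next lower without group overlap and with a mean count of at least 50, per irradiated tumor the 6 genes highest and 3 lowest against all other libraries, up to 4 members of each of 33 gene lists, Syk, Cd274 and the study's panel. The comparison, lists and rule were chosen with earlier results of these data known. Some items that the rule names are not reported here. Replicate numbers carried no stated pairing.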

Additional observations from a re-analysis of the deposited data

Results flagged for a closer look

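Tes was the 1 gene for which the treated groups differed from each other by the test of that difference. It was at 38.9, 37.6 and 40.2 CPM in irradiated tumors and at 7.32, 4.43 and 6.76 CPM in R788 + anti-PDL1 tumors, a log2 difference of 2.66 (edgeR adjusted p = 0.0232), with 3 of 3 irradiated tumors above every drug-only tumor. The call was lost in 7 of 9 fits with 1 library left out (adjusted p = 0.0587 to 0.296), the exceptions being those without irradiated tumor 1 and without vehicle tumor 1. It was also lost with only the 6 libraries compared (adjusted p = 0.119) and with the replicate block (adjusted p = 0.0925). Its direction was the same against vehicle. Groups held 3 tumors each, so single outlying tumors were not tested for.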

How the results depend on the processing

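The number of genes called against vehicle was 7. It was 70 with no low-count filter, 554 with DESeq2, 12 with limma-voom, 1993 with limma-voom and sample quality weights, 1 with only the 6 libraries compared, and 829 with DESeq2 on the 8 libraries other than irradiated tumor 1, an alternative added after seeing the data. It ranged from 1 to 57 when each library was left out, the lowest without vehicle tumor 2 or 3 and the highest without irradiated tumor 1. Requiring 10 counts in every library gave 6, and RLE and upper-quartile normalization gave 7 each. Apart from fewer genes or samples in the fit, the cause was not tested.

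Of the named genes, 1 was called between the treated groups. It was 12 with DESeq2, 15 with sample quality weights, 0 with only the 6 libraries compared, where 15 had an unadjusted p-value under 0.05, 10 with DESeq2 on 8 libraries, and 0 to 4 when each library was left out, with 4 without irradiated tumor 1.

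Same-numbered tumors deviated together with r of 0.23, 0.19 and 0.05 for irradiated and vehicle and 0.06, -0.01 and 0.01 for irradiated and drug-only tumors, so the numbers were not taken to pair tumors. With the replicate block 3 genes were called against vehicle and 0 named genes between the treated groups, where 14 had an unadjusted p-value under 0.05.

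Without irradiated tumor 3 the fold changes of Cd8a (-2.08), Oas2 (-1.45), Mx1 (-1.01) and Syk (-0.12) turned negative, where the highest values with another library left out were 2.79, 3.19, 1.74 and 1.03, and that of Mx1 was -0.66 with limma-voom. Cd274 turned positive without irradiated tumor 1 (0.25) or 2 (0.07), without vehicle tumor 2 (0.20) and with DESeq2 on 8 libraries (0.23), and its lowest value was -1.09, without irradiated tumor 3. None of these was called in any of those fits. Of the other alternative values of single named genes, 671 kept their direction and side of the threshold, 109 became called and 38 lost a call. With 3 tumors a group and irradiated tumor 1 apart from the rest, a missed threshold does not show that a gene was equal.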

Other observations

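Further genes were higher in all irradiated tumors than in every vehicle and every drug-only tumor. These were chosen after their values were seen. Efemp1, an extracellular matrix glycoprotein, was at 86.7, 88.7 and 92.2 CPM in vehicle, 317, 204 and 196 CPM in irradiated tumors and 81.9, 127 and 99.9 CPM in drug-only tumors (log2 fold change 1.42 ± 0.24, edgeR adjusted p = 0.0912). Kcnn4, a calcium-activated potassium channel, was at 8.89 to 9.88 CPM in vehicle, 18.9 to 26.4 CPM in irradiated tumors and 11.5 to 11.7 CPM in drug-only tumors (1.27 ± 0.21, adjusted p = 0.0912). Both genes were called without irradiated tumor 1, with adjusted p-values of 0.0362 and 0.0443. Between the treated groups, neither was called with all libraries (adjusted p = 0.135 and 0.159). The drug-only tumors lay above the vehicle range for Kcnn4 and reached above it for Efemp1.

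Lists of other immune cells gave values in both directions. Dendritic cell genes had a median fold change of 0.90 over 10 tested members and 0.22 without irradiated tumor 3. Neutrophil genes passed the filter at 5 of 12 members, with a median of -1.08, which was -1.83 without irradiated tumor 3, and Ly6g, which defines these cells, was at 0 in all 6 libraries. B and plasma cell genes had a median of 0.35 over 5 tested members, which was 0.72 without irradiated tumor 2 and 0.13 without irradiated tumor 3. edgeR called 0 genes of these lists, 1, 1 and 1 had an unadjusted p-value under 0.05, and DESeq2 called 0, 0 and 1. Mitochondrially encoded genes had medians of -0.90, 0.04 and -0.13 in irradiated tumors 1 to 3.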
